A study of Homo sapiens with 4 samples.

Results

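The genes described here encode the splicing factors of 5 families, taken by their annotated symbols as SRSF followed by a number, HNRNP, SF3A or SF3B followed by a number, SNRP and U2AF. The annotation of the array gave 57 such genes among 18132, on 204 probe sets. For 52 of them at least 1 probe set had a mean log2 signal over the 4 arrays no lower than the median signal of the array's gene probe sets, and 177 of the 204 probe sets passed. Statements on the probe sets of a gene cover those that passed, and a gene's value is that of its brightest one. The 52 genes were 11 SR proteins, 19 hnRNP proteins, 9 SF3A and SF3B subunits, 11 Sm and U snRNP proteins and 2 U2AF genes. RNA came from A549, a widely used human cell line of lung adenocarcinoma, and was hybridised to 4 arrays, 1 for each condition. The cells had received 25 μmol/L dihydroberberine together with 2 μmol/L sunitinib, dihydroberberine alone, sunitinib alone at the same doses, or no drug, and all were collected at 48 h. Dihydroberberine is derived from the plant alkaloid berberine by reduction, whereas sunitinib blocks receptor tyrosine kinases. The doses are those of the labels, and all 4 groups share the cell line, the medium and the time. The labels name no vehicle for the untreated cells. With 1 array per condition the differences below have no replicate check and no test, and "higher" or "lower" compares single arrays.

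Introns are removed from pre-mRNA by the spliceosome, which is built from small nuclear ribonucleoproteins (snRNPs) on each intron in turn. SR proteins carry a domain rich in arginine and serine, bind exonic enhancers and promote the use of nearby splice sites, whereas many hnRNP proteins bind intronic or exonic silencers and act against it. U2AF reads the end of the intron, the SF3A and SF3B complexes are parts of the U2 snRNP that engage the branch point, and the Sm proteins form the ring on which the snRNAs of most snRNPs are mounted. Several SR and hnRNP genes control their own transcript by alternative splicing of a highly conserved exon that leads to decay of the message, so a probe set may read productive and unproductive forms unequally.

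Promoter windows of 300 bases around the transcription start, lying mostly before it, were available from RefSeq (build GRCh38.p14) for 48 of the 52 genes. The 5 shown are from SR proteins that were lower with dihydroberberine in all their probe sets above the filter (SRSF1 and SRSF5), from an hnRNP protein that was (HNRNPU), and from an SF3B and a Sm protein that differed less (SF3B2 and SNRPB). Each runs 5′ to 3′ on the strand of its gene. Capitals mark CCGGAAG, the core of ETS factor sites, TGACG, the core of CRE sites, and CCAAT, each on either strand. SRSF1 lies at chr17:58007197-58007496 on the minus strand, SRSF5 at chr14:69766892-69767191 on the plus strand, HNRNPU at chr1:244864494-244864793 on the minus strand, SF3B2 at chr11:66052114-66052413 on the plus strand and SNRPB at chr20:2470740-2471039 on the minus strand.
SRSF1: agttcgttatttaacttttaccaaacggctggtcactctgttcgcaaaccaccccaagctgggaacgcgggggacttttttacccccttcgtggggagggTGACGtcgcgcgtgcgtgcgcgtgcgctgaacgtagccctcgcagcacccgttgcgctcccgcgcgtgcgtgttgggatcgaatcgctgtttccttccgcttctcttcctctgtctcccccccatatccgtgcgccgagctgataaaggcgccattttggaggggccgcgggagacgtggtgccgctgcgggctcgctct
SRSF5: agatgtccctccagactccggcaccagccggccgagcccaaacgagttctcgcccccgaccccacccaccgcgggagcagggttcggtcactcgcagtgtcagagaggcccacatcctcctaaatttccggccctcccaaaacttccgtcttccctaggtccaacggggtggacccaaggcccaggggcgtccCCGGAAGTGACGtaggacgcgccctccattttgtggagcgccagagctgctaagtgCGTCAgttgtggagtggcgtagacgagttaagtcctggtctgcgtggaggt
HNRNPU: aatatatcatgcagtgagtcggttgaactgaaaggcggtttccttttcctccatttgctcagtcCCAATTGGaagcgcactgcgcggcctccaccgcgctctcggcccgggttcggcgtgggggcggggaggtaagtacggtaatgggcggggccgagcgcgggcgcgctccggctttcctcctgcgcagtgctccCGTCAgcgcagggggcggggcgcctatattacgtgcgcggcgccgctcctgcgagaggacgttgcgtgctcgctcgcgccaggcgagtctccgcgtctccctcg
SF3B2: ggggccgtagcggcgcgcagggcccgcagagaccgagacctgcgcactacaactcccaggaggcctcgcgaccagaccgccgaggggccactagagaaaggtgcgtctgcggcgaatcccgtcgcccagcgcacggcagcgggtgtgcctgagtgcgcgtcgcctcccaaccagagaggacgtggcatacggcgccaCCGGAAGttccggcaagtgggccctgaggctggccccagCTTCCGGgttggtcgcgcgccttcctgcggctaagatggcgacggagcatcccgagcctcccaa
SNRPB: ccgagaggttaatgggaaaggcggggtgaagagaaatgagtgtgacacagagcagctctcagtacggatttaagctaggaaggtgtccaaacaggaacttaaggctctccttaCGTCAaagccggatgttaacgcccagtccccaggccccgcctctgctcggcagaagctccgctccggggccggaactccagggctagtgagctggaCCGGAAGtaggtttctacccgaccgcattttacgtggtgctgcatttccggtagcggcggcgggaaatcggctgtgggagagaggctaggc

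The letters of these windows, which the symbol rule and the arrays did not use, varied between the families, without a test. CCGGAAG was in 6 of 9 windows of SF3A and SF3B genes and in 9 of 15 of Sm and U snRNP genes, against 2 of 13 of SR genes, 3 of 29 of hnRNP genes and 10.3% of all 35116 windows. CCAAT was in 18 of 29 hnRNP windows, 1 of 9 of SF3A and SF3B genes and 3 of 13 SR windows, against 34.6% of all. TGACG was in 6 of 13 SR windows and 13 of 29 hnRNP windows, against 24.6% of all. In SRSF5 an ETS core stood directly before a CRE core, which was the case in 0.273% of all windows and in no other window of these genes. This joined string is the one seen in the SRSF5 window, so its low share elsewhere is no support for a role. A gene with several starts has several overlapping or separate windows, and a match of letters shows no binding. The first window of each gene had a median of 62.5% G and C in these genes and 58.33% over all genes. The shares above are not matched for this.

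The 4 arrays had median log2 signals of gene probe sets between 6.73 and 6.76 and correlations between 0.986 and 0.994. Control probes differed between arrays. The median log2 signal of background probes was 6.95 with both drugs, 7.15 with dihydroberberine, 6.99 with sunitinib and 6.70 untreated. The Alu probe set read 14.86, 14.42, 14.86 and 14.82 in this order, and the 18S rRNA probe sets averaged 14.15, 13.73, 14.12 and 14.36. The 3′ probe set of beta-actin exceeded its 5′ one by 0.82, 0.63, 0.85 and 0.91. For GAPDH this excess was 0.044, 0.045, 0.038 and 0.025. The untreated array was the low one for background and GAPDH. The dihydroberberine array was the low one for Alu, 18S rRNA and beta-actin. Their part in the differences below was not tested. Of 8 markers of A549 cells, 6 passed the same signal filter, whereas EPCAM and CDH1, both epithelial surface proteins, lay under it on every array. Of 9 markers of other cells 4 passed, namely CD14, CD68, VWF and ACTA2. PTPRC, the pan-leukocyte marker, lay under the filter on all arrays. ACTA2 read 9.53 with both drugs, 9.39 with dihydroberberine, 8.49 with sunitinib and 8.90 untreated. CD68 read 7.06, 8.42, 7.33 and 8.16 in this order. CD14 read 8.82 untreated and was lower on the treated arrays, down to 5.76 with both drugs. The source of these signals was not tested. The linear signals of the 9 markers summed to 1328 with both drugs, 1571 with dihydroberberine, 1018 with sunitinib and 1638 untreated.

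The clearest pattern lay in the SR proteins on the array of dihydroberberine alone. Of the 11 measured SR genes 10 were lower with dihydroberberine than untreated, 5 of them at least 1.5-fold and 4 at least 2-fold, or 3 with the value of SRSF8 under the filter raised to it, and the median log2 difference was -0.55. Over all 10430 genes above the filter 12.7% were at least 1.5-fold lower, 3.47% at least 2-fold, 54.1% were below 0 and the median was -0.04. In bulk RNA, fewer cells of a type and less RNA per cell cannot be told apart. All 10 SR genes that were lower had their lowest signal of the 4 arrays on the dihydroberberine array, which was so for 31.7% of all genes. The same held for 14 of 19 hnRNP genes, 4 of 11 Sm and U snRNP genes, 0 of 9 SF3A and SF3B genes and 0 of 2 U2AF genes. Of the 48 SR probe sets 47 were lower, 29 of them at least 1.5-fold and 17 at least 2-fold, or 27 and 16 with values under the filter raised to it. Of all 22720 probe sets 55.5% were lower, 12.3% at least 1.5-fold and 3.16% at least 2-fold. The 48 probe sets read the same 11 genes on the same arrays and are not independent of the counts of genes. No SR gene was 1.5-fold higher, against 4.55% of all genes.

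SRSF1, also called SF2/ASF, is the founding member of the family and acts in constitutive and alternative splicing. Its log2 signal was 12.05 with both drugs, 10.68 with dihydroberberine, 12.31 with sunitinib and 12.19 untreated. The dihydroberberine array was the low one and the other 3 arrays lay within 0.26 of each other on this probe set. The difference of -1.51 is a 2.85-fold lower signal with dihydroberberine. All 6 probe sets gave it, between -1.72 and -1.38, with an SD of 0.13 over probe sets. That SD covers differences between probes of 1 array pair and not the error between cultures.

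SRSF6 and SRSF5, also called SRp55 and SRp40, regulate alternative exons. The log2 signal of SRSF6 was 10.62 with both drugs, 9.37 with dihydroberberine, 11.02 with sunitinib and 10.81 untreated, which makes it 2.71-fold lower with dihydroberberine. Its other probe set gave a difference of -1.45, close to the -1.44 of the first. SRSF5 had 11.38 with both drugs, 10.35 with dihydroberberine, 11.53 with sunitinib and 11.24 untreated, a 1.86-fold lower signal. It had the most probe sets of all 52 genes, and its 10 differences lay between -1.19 and -0.64. For both genes the dihydroberberine array was the lowest. On the other probe set of SRSF6 the array of both drugs was also below the arrays without dihydroberberine, at 9.11 with both drugs, 9.81 with sunitinib and 9.77 untreated.

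SRSF2, or SC35, is a nuclear SR protein that does not shuttle to the cytoplasm in its usual form. Its log2 signal was 10.91 with both drugs, 10.50 with dihydroberberine, 11.50 with sunitinib and 11.67 untreated. Here both arrays with dihydroberberine were lower than both without it. The signal was 2.26-fold lower with dihydroberberine alone and 1.70-fold lower with both drugs than untreated, and 3 of 3 probe sets were lower in each comparison. SRSF8, which arose as a retrocopy of SRSF2, had 1 probe set. It read 8.02 with both drugs, 6.03 with dihydroberberine, 7.88 with sunitinib and 7.43 untreated. The dihydroberberine value lies under the signal filter. With that value raised to the filter, SRSF8 was 1.59-fold lower with dihydroberberine than untreated. It was then 2.42-fold higher with both drugs than with dihydroberberine. The filter is not a limit of detection, so these values are not bounds.

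The other SR genes differed less on their brightest probe set. SRSF9 was 1.47-fold lower with dihydroberberine than untreated, SRSF10, which represses splicing when dephosphorylated, 1.45-fold, SRSF11 1.35-fold, SRSF3, the smallest SR protein and an RNA export adaptor, 1.33-fold and SRSF7 1.23-fold. All probe sets of these 5 genes above the filter were lower. SRSF4 was the exception, with 1 probe set and a log2 difference of 0.12. SRSF10 had the widest spread of the family, from -1.19 to -0.03 over 7 probe sets, whereas SRSF11 with 5 probe sets kept between -0.46 and -0.28. SRSF12 had no probe set above the filter, and one of its 2 read 6.51 with dihydroberberine and 5.51 untreated.

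**Figure D1:**
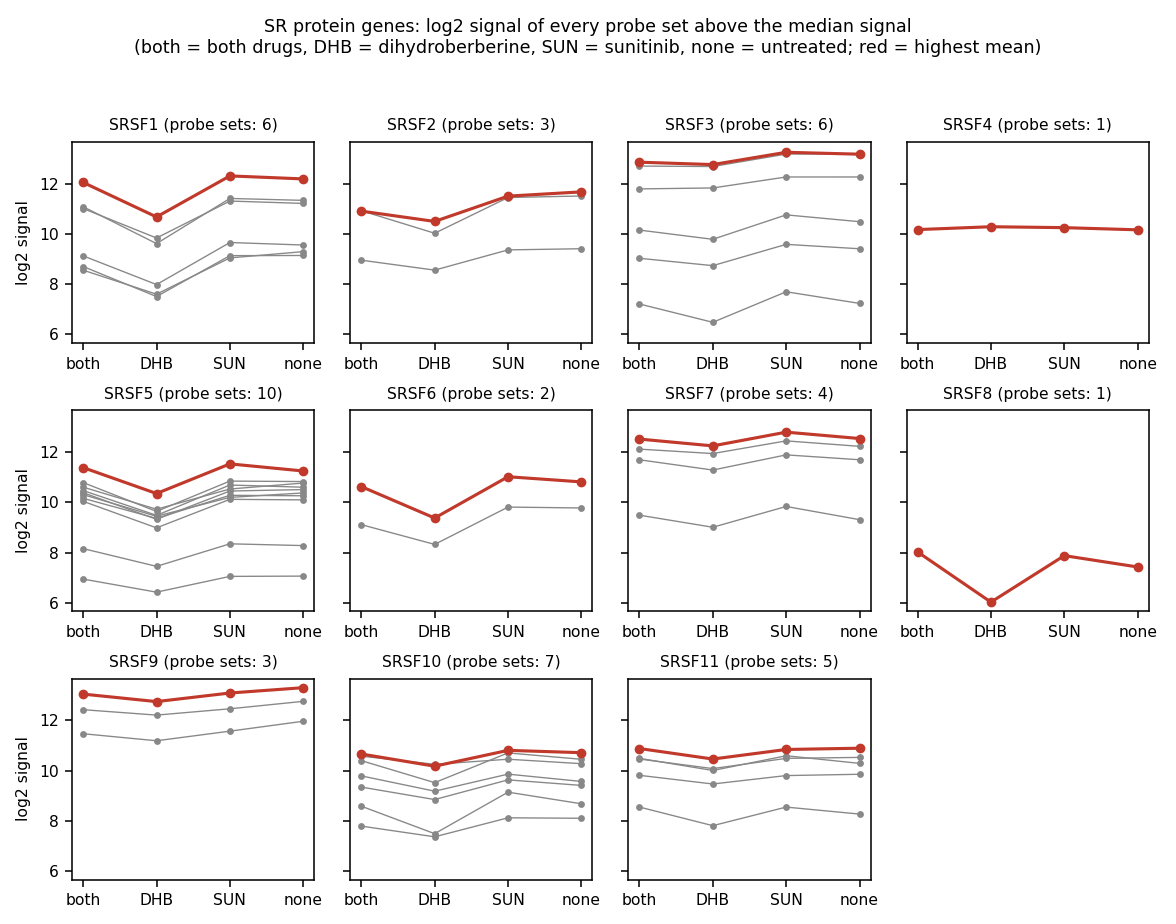
Log2 signal (vertical axis) of each probe set above the signal filter for the 11 SR genes on the 4 arrays (horizontal axis), 1 line per probe set, with the probe set of highest mean in red. In SRSF1, SRSF5, SRSF6 and SRSF8 the dihydroberberine array is the low point of the red line.

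Between the arrays with sunitinib, the differences of the SR genes were smaller. Whether this belongs to sunitinib or to the single array of dihydroberberine alone cannot be told apart. In the combination against sunitinib, which shares no array with dihydroberberine against untreated, 9 of 11 SR genes and 41 of 48 SR probe sets were lower, against 48.8% of all genes and 47.9% of all probe sets, at a median of -0.15. SRSF2 at -0.60 was the only one of the 52 genes at least 1.5-fold lower there, where 1.45% of all genes were. Its 3 probe sets gave -0.60, -0.52 and -0.41, and their mean of -0.51 is under 1.5-fold. The differences were -0.39 for SRSF3, -0.39 for SRSF6, -0.28 for SRSF7 and -0.26 for SRSF1. Of the 14 splicing factor genes at least 1.5-fold lower with dihydroberberine alone 11 were also lower in the combination against sunitinib, with medians of -0.84 and -0.09. Of the 1329 genes of the whole array that were so 68.2% were, with medians of -0.80 and -0.13. Of the 475 genes of the whole array at least 1.5-fold higher with dihydroberberine alone, 89.1% were also higher there, with medians of 0.75 and 0.44. The deviation from additivity, the log2 difference of the combination from untreated less those of the single drugs, was positive for 10 of 11 SR genes, with a median of 0.51. Over all genes 58.3% were positive and the median was 0.07. After quantile normalization 8 of 11 SR genes were positive, at a median of 0.43, and the median of all genes moved to -0.04.

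Against dihydroberberine alone the combination had higher signals for 10 of 11 SR genes, where 50.1% of all genes were higher. At least 1.5-fold higher were 6 of the 52 genes, 4 of them SR genes, against 10.4% of all genes. SRSF1 was 2.59-fold higher, SRSF6 2.38-fold and SRSF5 2.04-fold, and SRSF8 is given above. The hnRNP genes HNRNPH3 and HNRNPA0 were 2.44-fold and 1.68-fold higher. This comparison and that of dihydroberberine against untreated use the same dihydroberberine array.

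**Figure D2:**
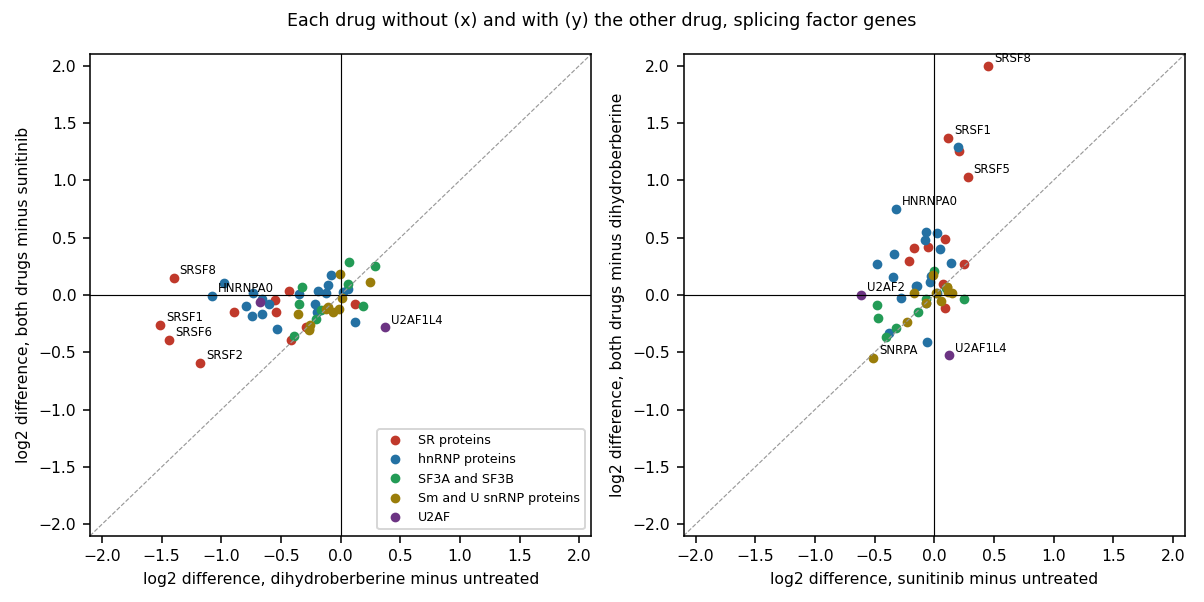
Log2 difference made by each drug without the other (horizontal axis) and with the other (vertical axis) for the 52 genes, coloured by family, with dihydroberberine at left and sunitinib at right. The dashed line marks equal differences, and in the left panel SRSF1 and SRSF6 lie far left at -1.51 and -1.44 with vertical values of -0.26 and -0.39. SRSF8 is drawn at -1.40 from a dihydroberberine value under the filter, so its horizontal place is uncertain.

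The hnRNP family was split. With dihydroberberine 8 of 19 genes were at least 1.5-fold lower and 16 were below 0, against 12.7% and 54.1% of all genes, with a median of -0.35, while the core hnRNP proteins A1, A2/B1 and C differed little. HNRNPH3, a small relative of the H proteins, had a log2 signal of 11.00 with both drugs, 9.72 with dihydroberberine, 10.89 with sunitinib and 10.69 untreated, a 1.97-fold lower signal with dihydroberberine in which 3 of 3 probe sets lay between -0.97 and -0.72. HNRNPD, or AUF1, which binds AU-rich elements of unstable messages, had 12.45, 12.18, 12.43 and 12.91 in the same order. The untreated array was the high one here, and the gene was 1.66-fold lower with dihydroberberine, with 6 probe sets between -1.13 and -0.70, and 1.39-fold lower with sunitinib. HNRNPU, a nuclear scaffold protein also called SAF-A, was 1.58-fold lower with dihydroberberine, at 12.02 against 12.67 untreated, and its 7 probe sets were all lower. With both drugs it stood at 12.57 and with sunitinib at 12.61.

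HNRNPA3 was 1.67-fold lower with dihydroberberine than untreated, HNRNPUL1 1.58-fold, HNRNPAB, the CArG-binding factor, 1.52-fold and HNRNPUL2, with 1 probe set, 1.73-fold. HNRNPAB was among the most even of the genes with 3 or more probe sets, at -0.62 to -0.55, as were U2AF1L4 at 0.35 to 0.37 and SNRPF at -0.38 to -0.29. HNRNPH1, a regulator that binds G-rich sequences, had a difference of -0.53 and 1 probe set. Between -0.35 and 0.12 lay HNRNPR, HNRNPK, HNRNPL, HNRNPA2B1, HNRNPF, HNRNPLL, HNRNPDL, HNRNPC, HNRNPA1 and HNRNPM. HNRNPC, which binds uridine-rich stretches and keeps Alu exons out, read 13.82 with both drugs, 13.89 with dihydroberberine, 13.80 with sunitinib and 13.87 untreated. The 4 arrays were close on that probe set, while its 5 probe sets ran from -0.58 to 0.05 with dihydroberberine.

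Probe sets of 1 gene disagreed most among the hnRNP genes. HNRNPA0 had 2 probe sets, of which the brighter read 10.92 with both drugs, 10.17 with dihydroberberine, 10.93 with sunitinib and 11.25 untreated, and the other 10.88, 7.23, 11.35 and 10.77. Both were lower with dihydroberberine, by log2 differences of -1.08 and -3.54, and no other of the 177 probe sets had a difference as low as the second. HNRNPA1 went the other way, with 4 probe sets between 0.06 and 0.28 and a further one at 1.33, which read 12.38 with dihydroberberine and between 11.05 and 11.20 on the other 3 arrays. HNRNPDL, an AUF1-like protein known for a self-regulating exon, had 4 probe sets between -0.13 and 0.23 and one at 1.35. That last one was also higher with both drugs, at 8.80 against 7.44 untreated. In HNRNPM the brightest probe set gave 0.12 and the other 2 gave -0.65 and -0.67, so its place among the little-changed genes rests on 1 probe set.

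Of the 42 genes with at least 2 probe sets above the filter 34 had all of them on 1 side of 0 with dihydroberberine (81%), against 69.8% of 6000 genes on the whole array. The median SD over probe sets was 0.13 for both. The range exceeded 1 on the log2 scale in HNRNPA0, HNRNPDL, HNRNPA1 and SRSF10, 4 of 42 genes (9.52%), and in 4.22% of all genes. The 8 genes with both signs were HNRNPA2B1, HNRNPC, HNRNPDL, HNRNPLL, HNRNPM, SF3B5, SNRPA1 and SNRPC. In the last of these, 2 of the 4 probe sets carried near-identical values on every array and are not separate readings. With sunitinib 23 of 42 genes had 1 sign (54.8%, and 61.3% of all genes), where most differences were small. Of the 177 probe sets 57 had names ending in _x_at and 52 in _s_at, which the array's maker gives to probe sets that may bind other transcripts as well.

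**Figure D3:**
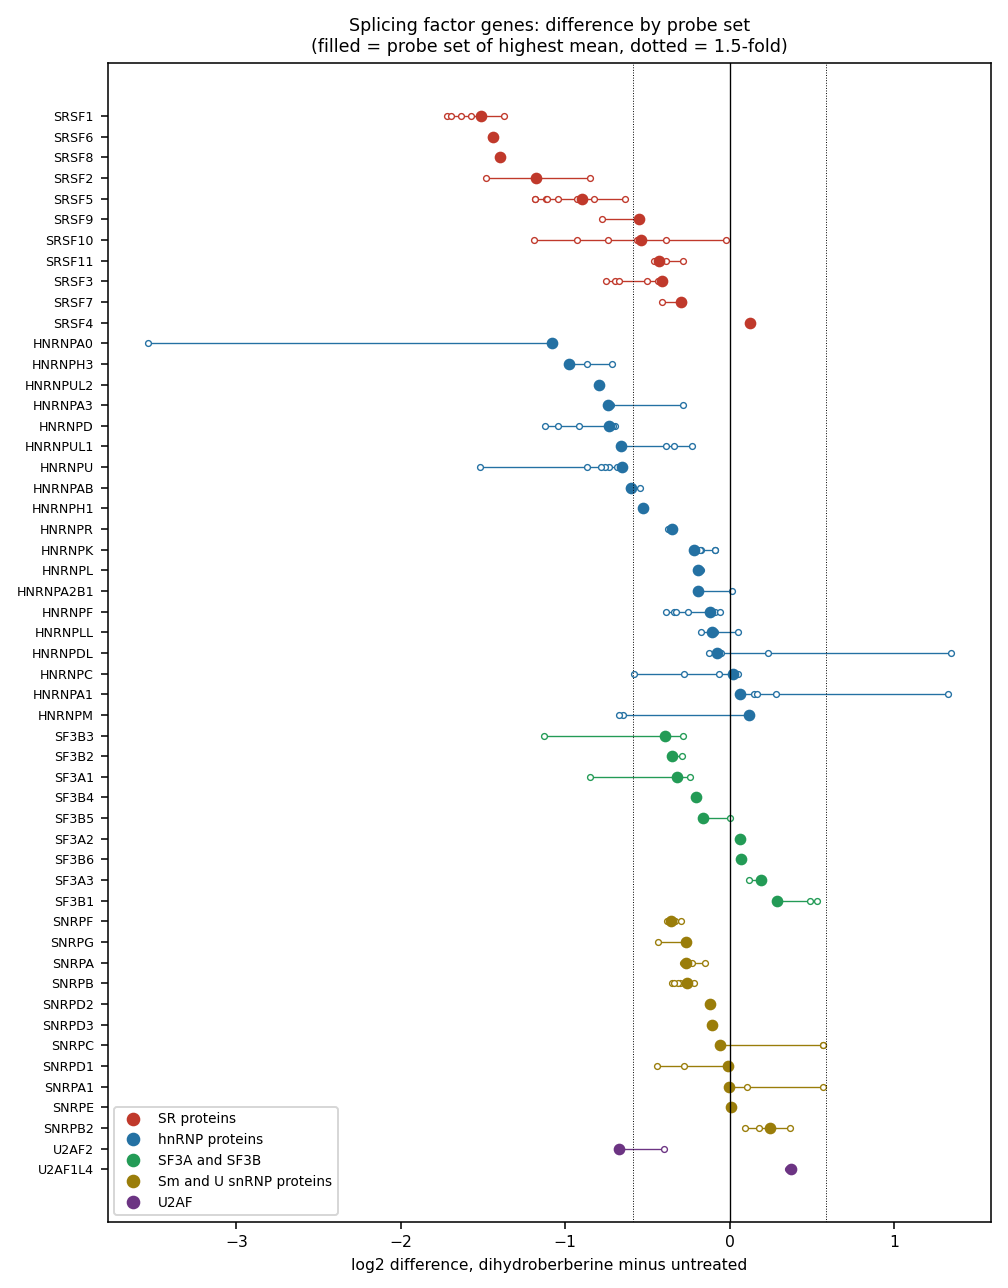
Log2 difference of dihydroberberine minus untreated (horizontal axis) for every probe set above the signal filter, 1 row per gene, grouped by family, with the probe set of highest mean filled. The SR rows lie left of 0 except SRSF4, and the open points of HNRNPA0 at -3.54, HNRNPDL at 1.35 and HNRNPA1 at 1.33 stand farthest from their genes' filled points.

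The subunits of SF3A and SF3B were within 1.5-fold of untreated with each single drug on their brightest probe sets. With dihydroberberine 5 of 9 were below 0, against 54.1% of all genes, and the median of the 9 was -0.16. With sunitinib 7 of 9 were, against 56.3% of all genes, with a median of -0.14. SF3B1, the largest SF3B subunit and the scaffold that holds the branch point, had a log2 signal of 11.66 with both drugs, 11.60 with dihydroberberine, 11.41 with sunitinib and 11.31 untreated. It was 1.22-fold higher with dihydroberberine and 1.27-fold higher with both drugs, and 3 of 3 probe sets were higher in each of these. SF3B3, which binds SF3B1, had 9.72 with both drugs, 10.09 with dihydroberberine, 10.08 with sunitinib and 10.49 untreated. Each drug alone gave a lower signal than untreated and the combination the lowest, 1.70-fold lower than untreated, with 3 of 3 probe sets lower in each comparison with untreated. Its 3 probe sets ranged from -1.13 to -0.29 with dihydroberberine. SF3B2, a partner of SF3B4, was 1.47-fold lower with both drugs, 1.27-fold with dihydroberberine and 1.39-fold with sunitinib than untreated. On the brightest probe sets none of the 9 genes had its lowest signal on the dihydroberberine array, where 31.7% of all genes did. A dimmer probe set of SF3A1 and one of SF3B3 did, with differences from untreated of -0.85 and -1.13.

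The Sm and U snRNP genes differed little with dihydroberberine. Of the 11 genes 0 were 1.5-fold apart from untreated, against 12.7% of all genes lower and 4.55% higher. Below 0 were 9 of the 11, against 54.1% of all genes, and the median of the 11 was -0.11. SNRPF and SNRPG, both members of the Sm ring, had the widest differences, at 1.28-fold and 1.20-fold lower. SNRPB, which encodes the Sm proteins B and B′, read 13.33 with both drugs, 13.56 with dihydroberberine, 13.59 with sunitinib and 13.82 untreated. It was 1.20-fold lower with dihydroberberine, 1.17-fold with sunitinib and 1.41-fold with both drugs, and its 7 probe sets kept between -0.58 and -0.49 with both drugs. SNRPB2, the U2 protein B″, was 1.19-fold higher with dihydroberberine and 1.20-fold higher with both drugs, with 4 of 4 probe sets higher in each. SNRPA, the A protein of the U1 snRNP, which also limits polyadenylation of its own message, stood apart. Its log2 signal was 10.34 with both drugs, 10.89 with dihydroberberine, 10.64 with sunitinib and 11.15 untreated. It was 1.76-fold lower with both drugs, 1.43-fold with sunitinib and 1.20-fold with dihydroberberine than untreated, and its 4 probe sets were all lower in each. Its deviation from additivity was -0.03, so the log2 differences of the single drugs add up to that of the combination.

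U2AF2, the large U2AF subunit that binds the polypyrimidine tract, had a log2 signal of 11.34 with both drugs, 11.35 with dihydroberberine, 11.41 with sunitinib and 12.02 untreated. The 3 treated arrays lay close together and the untreated array was high, with log2 differences from it of -0.67 with both drugs, -0.67 with dihydroberberine and -0.61 with sunitinib. The other probe set gave -0.34, -0.40 and -0.15 in this order. With sunitinib the difference was under 1.5-fold as the mean of both probe sets (-0.38) and after quantile normalization (-0.50). These 3 differences share the untreated array. U2AF1L4, a relative of the small subunit, went the other way with dihydroberberine alone, where it was 1.29-fold higher, at 8.85 against 8.48 untreated. In the combination it read 8.32 and was 1.09-fold higher with sunitinib than untreated.

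With sunitinib against untreated U2AF2 was the only one of the 52 genes at least 1.5-fold lower, where 3.67% of all genes were, and 0 were 1.5-fold higher, where 1.41% were. The median over the 52 genes was -0.04, as over all genes, and 30 of the 52 were below 0, where 56.3% of all genes were. After quantile normalization 19 of 52 were below 0, at a median of 0.06. Of all genes 46.6% then were, at a median of 0.02. After U2AF2 came SNRPA at -0.51, HNRNPD at -0.48, SF3A1 at -0.48 and SF3B2 at -0.47. On the other side SRSF8 had 0.45 and SRSF5 0.28, and 8 of 11 SR genes were above 0, where 43.6% of all genes were. When both drugs were set against dihydroberberine alone, a pair with neither of these arrays, SNRPA was lower again at -0.55. SF3B2 was at -0.20, SF3A1 at -0.09, U2AF2 at -0.002 and HNRNPD at 0.27. SF3B3, at -0.40 with sunitinib alone, was at -0.37 there.

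With both drugs against untreated 4 of 52 genes were at least 1.5-fold lower and 1 was higher, where 7.12% and 6.76% of all genes were. The lower ones were SNRPA, SRSF2, SF3B3 and U2AF2, and the higher one was SRSF8, at 1.51-fold, which quantile normalization brought under 1.5-fold, to a log2 difference of 0.58. The median was -0.13, and -0.02 over all genes. Below 0 were 38 of 52 genes, where 53% of all genes were. After quantile normalization 30 of 52 were, where 50.1% of all genes were. SRSF1, SRSF5 and SRSF6 lay at -0.14, 0.13 and -0.19 on their brightest probe sets. Over all their probe sets SRSF1 averaged -0.37, with 6 of 6 lower, SRSF6 -0.42, with 2 of 2 lower, and SRSF5 -0.08, with 9 of 10 lower. HNRNPH3 was at 0.31 and HNRNPL, which binds CA repeats, at -0.52.

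**Figure D4:**
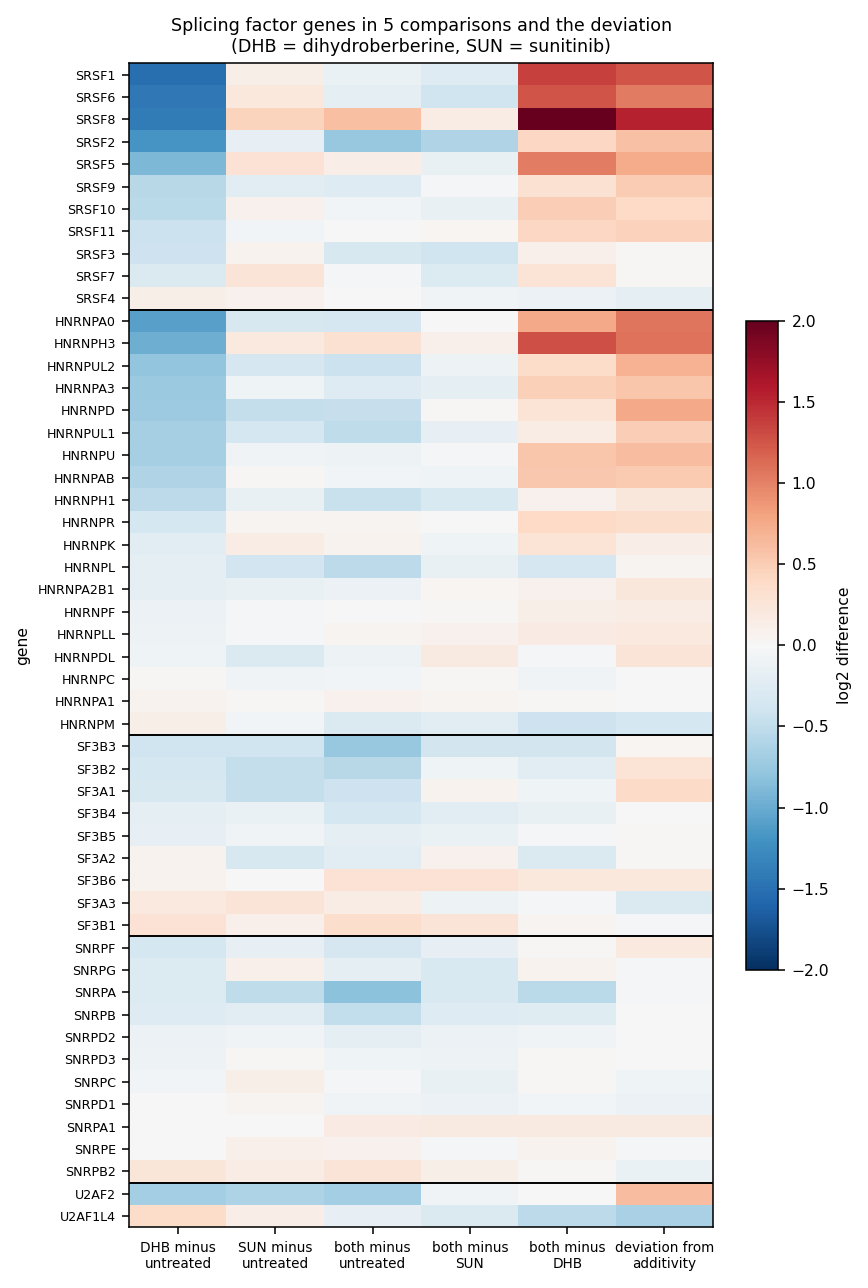
Log2 difference (colour, blue lower and red higher in the first-named array) of the 52 genes (rows, grouped by family) in 5 comparisons and in the deviation from additivity (columns). The dark blue cells of the first column are those of SR and hnRNP genes, with SRSF1 lowest at -1.51, and SNRPA has the darkest blue of the column of both drugs minus untreated, at -0.81.

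Other genes of the splicing machinery, from 10 lists of 156 genes in all, are set beside these, with 141 above the filter. With dihydroberberine 27 of the 141 were at least 1.5-fold lower and 3 higher, against 12.7% and 4.55% of all genes, with a median of -0.18. The counts of the lists below, each of at most 25 measured genes, are to be read against the same shares. Proteins related to SR proteins were lower in 12 of 17 cases, 6 of them at least 1.5-fold. TRA2B, a splicing activator with RS domains, had a log2 signal of 12.62 with both drugs, 11.66 with dihydroberberine, 12.77 with sunitinib and 12.55 untreated, and its 9 probe sets lay between -1.22 and -0.75. TRA2A was 4.81-fold lower with dihydroberberine on its brightest probe set, but its 5 probe sets ran from -2.67 to 0.64. Among other hnRNP-like and tissue regulators 22 of 25 were below 0 and 8 at least 1.5-fold lower, at a median of -0.41, among them PSPC1, a paraspeckle protein, 2.19-fold, though with 1 probe set at 0.49, and CIRBP, a cold-inducible RNA-binding protein, 2.17-fold.

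Proteins associated with the U1 and U2 snRNPs had a median of -0.49 with dihydroberberine, with 5 of 17 at least 1.5-fold lower. LUC7L3, a U1-associated SR-like protein, was 2.12-fold lower, with 5 probe sets from -1.08 to -0.10, and RBM10 1.78-fold lower. The minor spliceosome, which removes a rare class of introns, had 4 of 6 at least 1.5-fold lower, led by SNRNP48 at 1.90-fold and SNRNP25 at 1.86-fold, each with 1 probe set. Spliceosomal helicases had 2 of 9, DDX39A at 1.71-fold and DDX46 at 1.56-fold, and the tri-snRNP list 2 of 19, with DDX23 at 1.68-fold lower and PRPF18 at 1.75-fold higher. Genes of the Prp19 complex and the catalytic step lay on the other side, with 4 of 17 below 0 and a median of 0.21, where CWC27 was 1.61-fold higher and PLRG1 1.47-fold. The 4 probe sets of PLRG1 ran from -0.15 to 0.55. LSm proteins had a median of 0.01 over 9 genes, with LSM11 at 0.34 and LSM3 at -0.30, and snRNP assembly factors one of 0.10 over 15, with STRAP 1.47-fold lower and GEMIN4 1.44-fold lower. Among the 7 measured kinase and phosphatase genes of SR proteins, CLK1, which phosphorylates RS domains, was 1.58-fold higher with dihydroberberine, at 9.91 against 9.25 untreated, and CLK2 was 1.48-fold lower.

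The remaining genes of the 57 had low signals. HNRNPA1L2, HNRNPCL1, HNRNPCL2 and SNRPD2P2, the last a transcribed pseudogene, had no probe set above the filter, like SRSF12. A further 8 symbols of these families, among them U2AF1, SNRPN and HNRNPH2, appear only on probe sets annotated to several genes, and no value is given for them. Of the probe sets nearest to the filter, one of SRSF5 at a mean of 6.87, one of SNRPA1 at 6.93 and one of HNRNPA3 at 6.97 lay inside, and those of SNRPB at 6.67, SNRPG at 6.65 and HNRNPC at 6.63 outside.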

How the data were processed

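RNA from A549 cells was measured on 4 arrays, 1 per group, with groups taken from the sample titles. Per the labels' protocols RNA was labelled with biotin by an Affymetrix GeneChip IVT kit, and the software was Affymetrix Expression Console, per the submitters' processing notes. An Agilent array is named in the design text, but the probe set names are Affymetrix's. The authors deposited log2 signals per probe set, a scale taken from the range of 3.01 to 15.4. Their summarization, scaling between arrays and genome build were not found in these sources. Of 49293 gene probe sets 44988 had 1 symbol in the platform annotation, 1832 several and 2473 none. All 204 probe sets of the described genes matched a RefSeq symbol by gene identifier.

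Differences of log2 signals were computed per probe set (Python 3.11.15, pandas 2.3.3, numpy 2.4.6) and tested on simulated data. Per gene the probe set with the highest mean was used, if that mean reached the median of gene probe sets, which left 10430 genes. That filter is not a limit of detection. Levels of different genes were not compared. Counts used fixed sizes of 1.5-fold and 2-fold, with the same counts over all 10430 genes beside them. No test was run. Fully named were, per comparison, up to 8 genes per direction past 1.5-fold with 1 sign in all probe sets, 2 per family, the 5 widest deviations from additivity, the 6 widest and 3 narrowest probe set ranges, and 2 per list of other splicing genes. Other genes of these families are named with fewer values. The genes and lists were chosen with earlier results of these data known. Alternatives were the mean of probe sets, exclusion of _s_at and _x_at probe sets, quantile normalization, a filter at the 75th percentile (log2 8.69), no filter, protein-coding genes only and, added after seeing the data, raising values to the filter.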

Additional observations from a re-analysis of the deposited data

Results flagged for a closer look

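Some genes had a drug difference of opposite sign without and with the other drug and a deviation from additivity of at least 1.5-fold. This was found for 7 of 52 genes, and the difference between the pairs was not tested. How many of all genes met both conditions was not counted, so the 7 have no share to be read against. The deviation alone was at least 1.5-fold upward in 10 of the 52 genes and downward in 1. Of all 10430 genes, 1276 had such a deviation upward and 334 downward. With dihydroberberine, the log2 difference without sunitinib and then with it was -1.40 and 0.15 for SRSF8 (deviation 1.54, or 0.82 with the value under the filter raised to it), -0.97 and 0.11 for HNRNPH3 (deviation 1.08), -0.73 and 0.02 for HNRNPD (deviation 0.75) and 0.37 and -0.28 for U2AF1L4 (deviation -0.65). With sunitinib, the difference without dihydroberberine and then with it was -0.32 and 0.75 for HNRNPA0 (deviation 1.07), -0.48 and 0.27 for HNRNPD, -0.34 and 0.36 for HNRNPUL2 (deviation 0.70), -0.07 and 0.55 for HNRNPU (deviation 0.62), and 0.13 and -0.53 for U2AF1L4. These values are from the brightest probe set, and SRSF8 and HNRNPUL2 had 1 probe set each. The change of sign did not hold over all probe sets of 3 genes. With sunitinib alone the mean over probe sets was 0.13 for HNRNPA0 and 0.02 for HNRNPU, and for HNRNPD the mean of the combination against sunitinib was -0.10, with 3 of 6 probe sets negative. In all of these the deviation includes the dihydroberberine array.

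Control probes outside the gene measurement also differed. The median log2 signal of the background probes (15 to 25 G or C) was 7.15 on the dihydroberberine array and 6.70 on the untreated array, a log2 difference of 0.45.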

How the results depend on the processing

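With dihydroberberine against untreated the count of 14 genes at least 1.5-fold lower was within 1.5 times under every alternative, and the median over the genes measured lay between -0.32 and -0.21. The SR count of 5 was 7 with the mean of probe sets and 4 of 8 genes without _s_at and _x_at probe sets. The median with sunitinib, -0.04, changed sign with the mean of probe sets (0.003) and after quantile normalization (0.06, and 0.02 over all genes). Small counts moved. With no filter 1 gene, SRSF12, was 1.5-fold higher with dihydroberberine. After quantile normalization 0 genes were 1.5-fold lower with sunitinib. For both drugs against untreated 3 genes were higher without _s_at and _x_at probe sets, 0 after quantile normalization and 0 with the stricter filter. For the combination against sunitinib 0 were lower with the mean of probe sets and 0 without _s_at and _x_at probe sets. For the combination against dihydroberberine 1 was lower with the mean of probe sets, 1 without _s_at and _x_at probe sets, 1 after quantile normalization and 1 with no filter. The cause was not tested. Of the 24 differences past 1.5-fold of fully named genes, all kept their direction with the mean of probe sets and after quantile normalization, 20 and 21 of them past 1.5-fold. Without _s_at and _x_at probe sets 17 had a value, and all 17 kept their direction past 1.5-fold. Each of the 24 differences had 1 sign in all its probe sets above the filter. The direction therefore could not change with the mean of probe sets or without _s_at and _x_at probe sets. All 52 genes are protein-coding, so the restriction to protein-coding genes could change no count. Raising values to the filter altered only SRSF8 among the brightest probe sets of these genes. It changed no count of genes at 1.5-fold, while it took the SR genes at least 2-fold lower with dihydroberberine to 3. No paired analysis was possible because each condition holds 1 array and the labels give no replicate numbers. Leaving out a replicate was not possible for the same reason. Levels near the filter may be background.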
